A study of Mus musculus with 18 samples.

Results

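Endothelial cells (ECs) from spontaneous MMTV-PyMT breast tumours were compared 3 h after an injection of cGAMP or of PBS into the tumour. Each treatment had 3 libraries, so that the means compared came from 6 of the 18 libraries of the series. The comparison was read across all 16248 genes of the deposited table. The mice were FVB females that carry the polyoma middle T oncogene under the mouse mammary tumour virus promoter, which is active in mammary epithelium, so their tumours arose in the gland itself. The cGAMP group received the cyclic dinucleotide 3'3'-cGAMP and the PBS group the same volume of phosphate-buffered saline, both into the tumour of a mouse of this genotype. Tumours were dissociated, CD31+ cells were enriched on magnetic beads, and live CD45- CD31+ cells were sorted for RNA sequencing. The other 12 libraries came from ECs of normal mammary fat pads and of implanted breast tumours, each with 3 PBS and 3 cGAMP libraries. They served to show where the MMTV-PyMT response differed. They also entered the filter on levels and the shared spread behind every standard error and adjusted p. The methods name 3 mice a group from 3 independent experiments without saying which library belongs to which, so an effect of the experiment could not be fitted.

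cGAMP is the second messenger that the DNA sensor cGAS makes when it meets DNA in the cytosol. It binds STING, a protein of the endoplasmic reticulum, which then recruits the kinase TBK1. TBK1 phosphorylates IRF3, the factor that starts type I interferon transcription, and NF-kB is activated in parallel. Interferon acts back on the cells through the JAK kinases, STAT factors and IRF9, and this second wave switches on antiviral effectors, chemokines and antigen presentation. ECs line the vessels, and under inflammatory signals they put out selectins, integrin ligands and chemokines that capture leukocytes from the blood.

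All values are FPKM (fragments per kilobase of gene, scaled for the depth of the library, and so a level per gene length), and changes are differences of mean log2(FPKM + 1), cGAMP minus PBS, with standard errors (SE) from limma. The added 1 holds down the change of genes with low levels. A gene is said to have risen or fallen where its adjusted p was under 0.05, and is called where its log2 change was also at least 1. This limit is written below as 2-fold, on the scale with the added 1. Folds given beside FPKM levels are ratios of mean FPKM and can be larger. The 6 libraries held 9439112 to 12055770 counted reads each, so that a single read over 1 kb came to 0.0753 to 0.106 FPKM. Correlations of log2 values between libraries were 0.985 to 0.989 within PBS, 0.981 to 0.986 within cGAMP and 0.933 to 0.961 between the treatments.

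Markers of the sorted cells did not all point to endothelium. The summed FPKM of 10 endothelial markers was 1034, 913 and 850 in the PBS libraries and 927, 1272 and 1133 in the cGAMP libraries, and none of the 10 rose or fell. The VE-cadherin gene Cdh5 read 271 to 325 FPKM under PBS and 310 to 422 under cGAMP. The summed FPKM of 7 epithelial markers, among them the keratins Krt18 and Krt8 and the adhesion protein Epcam, was as high, at 893, 966 and 945 under PBS. It was lower in every cGAMP library, at 866, 616 and 780, though none of the 7 genes passed (adjusted p 0.175 to 0.951). In a fit of the 6 MMTV-PyMT libraries alone, Krt18 did fall with an adjusted p under 0.05, with means of 265 FPKM under PBS and 185 under cGAMP. In ECs of the normal fat pad the epithelial sum was 439 to 565 FPKM under PBS. The leukocyte markers summed to 90.1 to 101 FPKM under PBS and 121 to 144 under cGAMP. The higher sum rested on the lipopolysaccharide co-receptor Cd14, which rose by 0.65 (SE 0.17), with 63.0 to 71.9 and 98.3 to 118 FPKM. It alone of the 10 tested leukocyte markers passed. The others moved little and both ways, as in the PBS and cGAMP means of Lyz2 (16.5 and 15.7 FPKM), Csf1r (2.10 and 1.34) and Tyrobp (2.57 and 3.17). Of the 12 leukocyte markers 10 were in the table, and Ptprc, which encodes the CD45 that the sort was gated against, read 0.156 to 0.333 FPKM in the 6 libraries. Summed milk protein genes read 817 to 1396 FPKM under PBS and 1075 to 1699 under cGAMP. None of the 4 adipocyte markers was in the table. With bulk RNA, a smaller share of a cell type and less RNA per cell cannot be told apart, and the part of the epithelial and leukocyte signals in the results below was not tested.

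**Figure D1:**
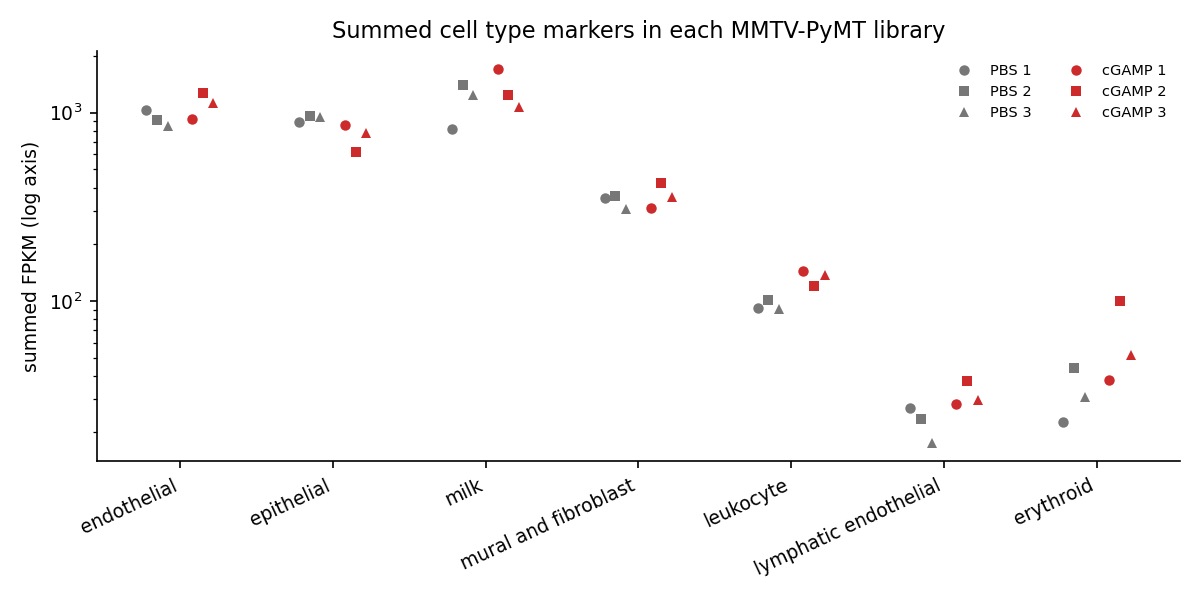
Summed FPKM of 7 cell type marker lists (x axis) on a log axis (y axis), 1 point for each MMTV-PyMT library, grey for PBS and red for cGAMP, with the library number given by the symbol. The epithelial sum lies at the height of the endothelial sum, between 616 and 966 FPKM, and all 3 cGAMP libraries lie under all 3 PBS libraries there.

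The changes of at least 2-fold were mostly increases, and the largest were those of interferon-induced antiviral genes and chemokines. Of the 13983 genes with levels high enough to be tested, 348 (2.49%) were called higher after cGAMP and 10 (0.0715%) were called lower. With no limit on size, 1037 genes (7.42%) rose and 639 (4.57%) fell. These shares of all tested genes are to be set beside the list counts below. Among the genes called higher, 118 had a log2 change of at least 2, 26 of at least 4 and 7 of at least 6. The largest fall was by 1.73 on the log2 scale. All 3 cGAMP libraries lay above all 3 PBS libraries for 2068 genes (14.8%) and below them for 2606 (18.6%). The genes called higher took 1.11% to 1.32% of the reads under PBS and 5.19% to 6.11% under cGAMP. The balance of rises and falls depends on the scaling. The denominator of the deposited values was 1.10 times the counted reads in each PBS library and 0.987 to 1.02 times in the cGAMP libraries. Scaled by total reads instead, the median of all genes moved by -0.11 on the log2 scale, and 915 genes rose while 2367 fell, so that rises went from 61.9% to 27.9% of the genes that passed (49.4% with quantile normalization). Among the called genes, 97.2% were higher with the deposited scaling and 91.9% with total reads. The 639 falls were also less stable between libraries: without PBS replicate 2 they numbered 364, without PBS replicate 3 231, without cGAMP replicate 2 221 and without cGAMP replicate 3 289, and the 1037 rises became 668 without PBS replicate 3 and 645 without cGAMP replicate 2.

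**Figure D2:**
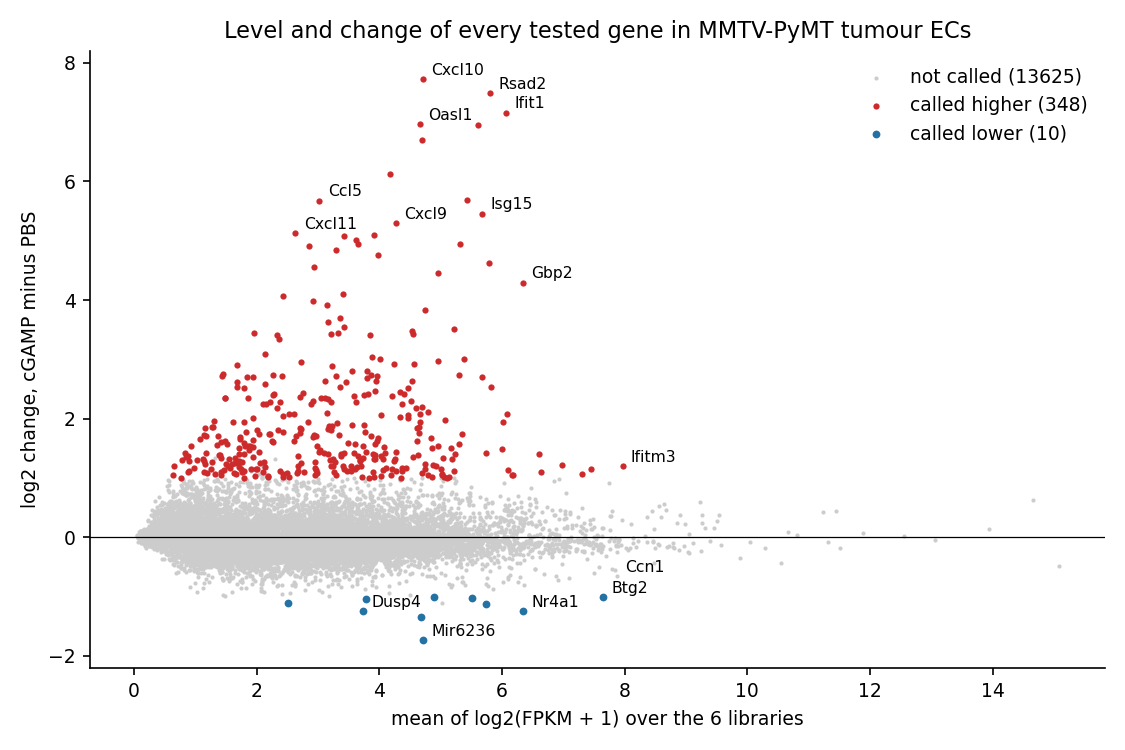
Log2 change after cGAMP (y axis) against the mean of log2(FPKM + 1) over the 6 libraries (x axis) for each of the 13983 tested genes, with called genes in colour. Red points reach 7.73 (Cxcl10), while the 10 blue points end at -1.73 (Mir6236).

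The 4 genes with the largest changes were Cxcl10, Rsad2, Ifit1 and Oasl1, and their promoters are shown so that the DNA element of the interferon pathway can be looked for beside the values that follow. Each window runs from 250 bases before to 50 bases after the start site and is printed 5' to 3' on the gene's strand (RefSeq, build GRCm38.p6). Capitals mark each core of the interferon-stimulated response element (ISRE), which IRF factors and complexes of STAT factors with IRF9 bind, spelled GAAANNGAAA and read on either strand. The windows are chr5:92348840-92349139 (minus strand) for Cxcl10, chr12:26456403-26456702 (minus strand) for Rsad2, chr19:34640639-34640938 (plus strand) for Ifit1 and chr5:114922990-114923289 (plus strand) for Oasl1.
Cxcl10: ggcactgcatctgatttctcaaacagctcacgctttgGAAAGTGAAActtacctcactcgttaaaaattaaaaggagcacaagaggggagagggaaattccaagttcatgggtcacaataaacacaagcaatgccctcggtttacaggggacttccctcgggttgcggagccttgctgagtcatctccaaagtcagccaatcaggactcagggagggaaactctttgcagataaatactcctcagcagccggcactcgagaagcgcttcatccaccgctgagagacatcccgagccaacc
Rsad2: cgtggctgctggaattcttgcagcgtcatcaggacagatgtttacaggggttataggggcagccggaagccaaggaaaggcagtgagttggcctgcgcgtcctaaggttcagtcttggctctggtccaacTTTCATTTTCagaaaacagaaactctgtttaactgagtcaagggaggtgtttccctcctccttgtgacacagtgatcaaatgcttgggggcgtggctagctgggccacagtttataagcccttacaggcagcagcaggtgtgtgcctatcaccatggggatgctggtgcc
Ifit1: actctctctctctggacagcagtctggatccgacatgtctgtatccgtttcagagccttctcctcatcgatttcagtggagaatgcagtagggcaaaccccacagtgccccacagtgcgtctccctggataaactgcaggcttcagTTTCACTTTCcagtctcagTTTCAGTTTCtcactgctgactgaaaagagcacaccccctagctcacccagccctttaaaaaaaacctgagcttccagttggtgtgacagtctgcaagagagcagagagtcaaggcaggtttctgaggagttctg
Oasl1: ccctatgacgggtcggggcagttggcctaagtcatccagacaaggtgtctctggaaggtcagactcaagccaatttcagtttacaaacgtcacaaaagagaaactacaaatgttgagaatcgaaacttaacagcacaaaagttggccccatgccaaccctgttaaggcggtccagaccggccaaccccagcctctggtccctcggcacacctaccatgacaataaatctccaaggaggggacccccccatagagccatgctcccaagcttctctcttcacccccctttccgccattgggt

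The Cxcl10 window held 1 core, beginning 213 bases before the start site, and the Rsad2 window held 1 at 120 bases. In the Ifit1 window 2 cores began at 104 and 85 bases, whereas the Oasl1 window held none with these letters. None of the 4 held GGGNNTTTCC, a narrow spelling of the NF-kB element, on either strand. With the wider kB consensus, which allows either purine or either pyrimidine at its variable positions and was searched after the data were seen, the Cxcl10 and Oasl1 windows matched and the Rsad2 and Ifit1 windows did not. Windows were at hand for 238 of the 348 genes called higher (68.4%) and for 9831 of the 13983 tested genes (70.3%), so a comparison over the whole set is void for want of coverage, and the shares that follow describe these windows only. An ISRE core was present in 65 of the 300 windows of genes called higher (21.7%), in 1.41% of the windows of genes that fell and in 3.07% of the 12584 windows of all tested genes. GGGNNTTTCC was present in 5.67% of the windows of genes called higher and 1.67% of all, the wider kB consensus in 13.3% and 10.8%, and the STAT element TTCNNNGAA, which can overlap an ISRE core, in 15% and 6.86%. Among genes with a single window, 1.93% of the 7583 without an ISRE core were called higher, 14.7% of the 218 with 1 core and 51.9% of the 27 with 2 or more.

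Antiviral effectors rose as a body. Of 89 tested genes in 8 lists of antiviral effectors, 81 rose, 71 of them at least 2-fold, and none fell, with a median log2 change of 2.06 against -0.04 for all tested genes. With each of the 6 libraries left out in turn, 75 to 81 of the 89 rose. Rsad2 encodes viperin, a radical enzyme that makes a chain-terminating nucleotide. Its level was 2.21, 4.90 and 2.80 FPKM in the PBS libraries and 754, 775 and 714 in the cGAMP libraries, a 227-fold difference of means (log2 change 7.49, SE 0.20, adjusted p = 9.84e-13). The neighbouring Cmpk2, a mitochondrial nucleotide kinase, went from 3.26, 6.58 and 5.82 FPKM to 273, 330 and 328. In both genes the treatments were far apart and the 3 cGAMP libraries nearly level.

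The IFIT proteins bind the 5' ends of foreign RNA, and all 6 tested members were called higher, with a median log2 change of 6.41. Ifit1 read 2.61, 8.62 and 4.12 FPKM under PBS and 945, 679 and 809 under cGAMP, which was 159-fold (log2 change 7.16, SE 0.27, adjusted p = 1.41e-11). Ifit2 read 2.72, 5.08 and 2.77 FPKM and then 534, 594 and 505. Ifit3 and its close copy Ifit3b rose by 6.71 (SE 0.23) and 6.12 (SE 0.29), and reads that fit both copies may have been lost or split in counting.

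Among the 2'-5'-oligoadenylate synthetases, which make the activator of RNase L, the catalytically inactive relative Oasl1 changed most. It stood at 0.693, 1.95 and 1.33 FPKM under PBS and at 282, 270 and 296 under cGAMP (214-fold, log2 change 6.97, SE 0.21, adjusted p = 2.34e-12). Oasl2 rose by 3.55 (SE 0.24) and Oas1b by 3.09 (SE 0.14). The family as a whole was uneven: 7 of its 9 tested genes rose but only 4 were called, and Oas3 read 0.0213, 0.796 and 0.0779 FPKM under PBS and no more than 1.74 under cGAMP. The dynamin-like GTPases Mx1 and Mx2, which block viral nucleocapsids, rose from 0.119, 0.609 and 0.270 FPKM to 40.1, 37.2 and 38.5 and from 0.813, 1.58 and 1.15 FPKM to 62.5, 78.5 and 66.0.

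All 8 tested guanylate-binding proteins and all 10 immunity-related GTPases, 2 families that attack vacuoles holding pathogens, were called higher, with median log2 changes of 3.25 and 4.08. Gbp2 was the most abundant of them, at 17.0, 18.9 and 16.2 FPKM under PBS and 297, 383 and 409 under cGAMP (20.9-fold, log2 change 4.30, SE 0.20, adjusted p = 3.01e-10). Gbp5 went from 0.908, 0.931 and 0.664 FPKM to 39.3, 63.6 and 54.0. Igtp read 5.48, 7.53 and 5.84 FPKM and then 169, 238 and 269 (log2 change 4.94, SE 0.18). Gm12250, another GTPase of this family, rose by 5.10 (SE 0.25) and Tgtp1 by 4.56 (SE 0.15). In most of these genes cGAMP replicate 1 was the lowest of the 3 treated libraries, yet it remained far above every PBS library.

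ISG15, a ubiquitin-like protein that is joined to newly made proteins, rose together with the enzymes of its own pathway. Isg15 read 4.18, 11.6 and 6.16 FPKM under PBS and 320, 355 and 344 under cGAMP (46.6-fold, log2 change 5.46, SE 0.25, adjusted p = 2.11e-10). Its activating enzyme Uba7 rose by 1.38 (SE 0.16), the conjugating enzyme Ube2l6 by 2.73 (SE 0.21), the ligase Herc6 by 2.41 (SE 0.16) and the protease Usp18, which takes ISG15 off again and also damps the interferon receptor, by 4.75 (SE 0.24). So 5 of the 7 listed genes were called, and the Herc relatives Herc3 and Herc4 (log2 changes -0.05 and -0.03) did not pass. All 6 tested interferon-induced PARPs and all 11 antiviral TRIM ligases rose as well. Parp14 led the first group with 10.2, 10.9 and 9.06 FPKM under PBS and 100.4, 141 and 137 under cGAMP, and the intracellular antibody receptor Trim21 the second with 4.08, 6.19 and 5.47 FPKM and then 35.8, 36.0 and 40.2.

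**Figure D3:**
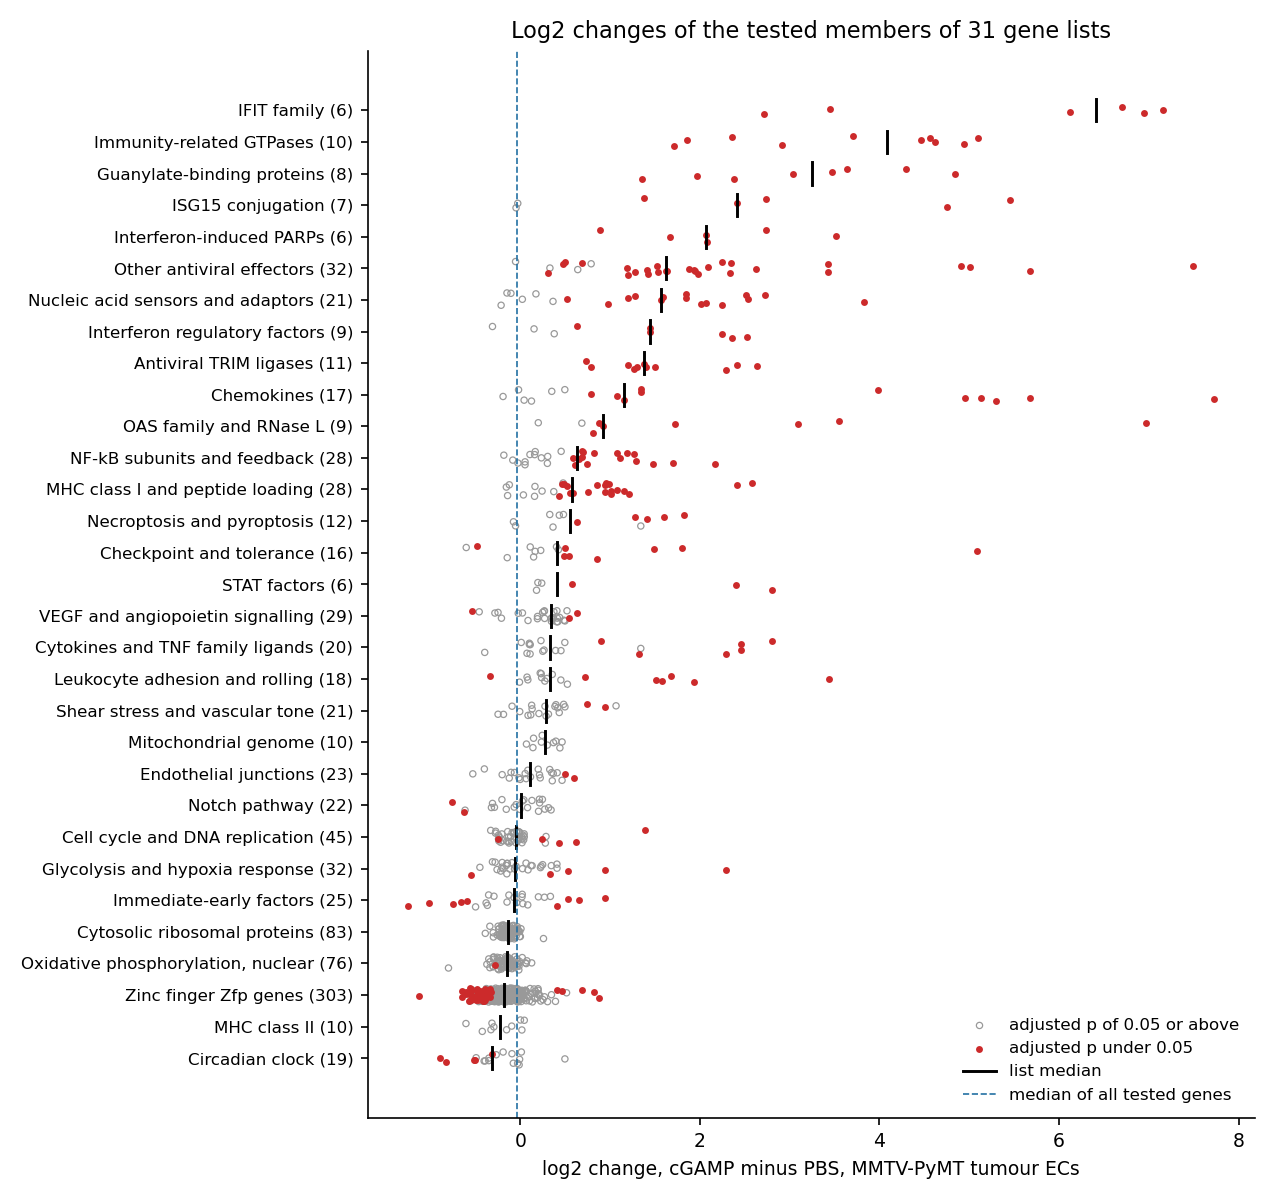
Log2 change (x axis) of each tested member of 31 gene lists (rows, with the number of tested members), filled where the adjusted p was under 0.05, with a black bar at each list's median and a dashed line at the median of all tested genes. The IFIT, immunity-related GTPase and guanylate-binding lists lie wholly to the right, with medians of 6.41, 4.08 and 3.25. The ribosomal and oxidative phosphorylation lists lie close to the dashed line, with medians just to its left.

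The genes that sense nucleic acids rose too, including those of the pathway that cGAMP enters. Of 21 tested sensors and adaptors 15 rose, 13 of them at least 2-fold. The RNA sensor MDA5, encoded by Ifih1, had the largest change, from 5.31, 6.48 and 6.6 FPKM to 103, 97.9 and 98.2 (log2 change 3.83, SE 0.13, adjusted p = 5.48e-12). RIG-I (Ddx58) and LGP2 (Dhx58) rose by 2.01 (SE 0.13) and 2.53 (SE 0.18). The DNA sensor Cgas read 1.06, 0.917 and 1.03 FPKM under PBS and 4.49, 5.81 and 4.78 under cGAMP (log2 change 1.59, SE 0.12). STING itself, listed under its older symbol Tmem173, stood at 17.1, 16 and 12.9 FPKM and then at 24.9, 32.7 and 36.6. This was a rise of 0.98 (SE 0.15, adjusted p = 0.000237), just under the limit of 1 on the log2 scale. The kinase Tbk1 rose by 0.52 (SE 0.11). Among the channels and carriers that let cGAMP into cells, 1 of 7 passed, the fall of Lrrc8e by 0.40 at a level of about 1 FPKM.

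Downstream, 6 of 9 interferon regulatory factors and 3 of 6 STAT genes rose. Stat2 read 2.78, 4.5 and 3.21 FPKM under PBS and 25.5, 33.1 and 32.0 under cGAMP (log2 change 2.80, SE 0.13, adjusted p = 1.88e-10). Irf1, a factor of the early inflammatory and interferon responses, had the highest level of these genes after treatment, at 28.3, 19.8 and 20.3 FPKM and then 131, 141 and 131 (log2 change 2.53, SE 0.13). Irf7, which widens the interferon response, stood at 3.83, 19.2 and 7.67 FPKM under PBS, with PBS replicate 2 well above the others, and at 34.7, 49.0 and 49.9 under cGAMP (log2 change 2.25, SE 0.37). Irf9, Irf2 and Irf8 were also called, and Irf5 rose by 0.63 from levels under 1 FPKM. Of 10 receptor chains and JAK kinases 3 rose, Jak2 by 1.23 (SE 0.15), Ifnar2 by 0.40 and Jak3 by 0.40. The feedback inhibitor Socs1 rose from 1.53, 0.857 and 0.920 FPKM to 9.77, 14.9 and 13.8, and Socs2 and Cish rose by less than 2-fold.

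Chemokines gave the largest single change of the experiment. Of 17 tested chemokines 11 rose, 10 of them at least 2-fold, and none fell. Cxcl10, a ligand of CXCR3 that draws T cells and NK cells, read 1.17, 0.778 and 0.524 FPKM in the PBS libraries and 330, 433 and 392 in the cGAMP libraries (467-fold, log2 change 7.73, SE 0.22, adjusted p = 1.18e-12). The other CXCR3 ligands followed. Cxcl9 went from 2.20, 1.74 and 2.32 FPKM to 82.9, 149 and 141 (59.5-fold), with cGAMP replicate 1 the lowest of the treated libraries. Cxcl11 was near the detection floor under PBS, with 1 to 4 reads a library, and had at least 1065 reads in each cGAMP library, where it read 25.9, 43.2 and 40.6 FPKM. Ccl5, the T cell attractant RANTES, likewise had 1 to 3 reads under PBS and read 68.5, 48.3 and 56.5 FPKM under cGAMP. The fitted changes of these low starters, 5.13 and 5.68, depend on the added 1 and are no bounds.

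The monocyte attractants Ccl2 and Ccl7 rose by 4.95 (SE 0.36) and 3.99 (SE 0.33). Ccl2 stood at 1.59, 1.38 and 0.899 FPKM under PBS and at 64.2, 90.1 and 57.2 under cGAMP. The neutrophil attractants moved less, Cxcl1 from 11, 7.09 and 5.08 FPKM to 21.1, 18.6 and 21.1 (log2 change 1.34, SE 0.29, adjusted p = 0.00579) and Cxcl2 by 1.07 (SE 0.25). The membrane-bound Cx3cl1, which ECs display to patrolling monocytes, started highest, at 21.0, 20.3 and 20.5 FPKM, and reached 53.3, 37.3 and 51.9. Ccrl2, a receptor that presents a chemoattractant on endothelium and is in none of the lists, rose by 3.01 (SE 0.17).

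Of 20 tested cytokines and TNF family ligands 6 rose, 5 of them at least 2-fold. Tnf, the inflammatory cytokine that can also kill vessels, read 5.52, 3.43 and 4.03 FPKM under PBS and 61.0, 27.0 and 27.4 under cGAMP (log2 change 2.80, SE 0.27, adjusted p = 1.4e-06). Here cGAMP replicate 1 was the highest library, the reverse of its place among the antiviral genes. Il6 went from 10.8, 4.22 and 3.47 FPKM to 35.1, 37.4 and 31.9, and the granulocyte growth factor Csf3 from 5.38, 2.68 and 2.12 to 20.4, 21.4 and 16.7. In both of them PBS replicate 1 was the highest untreated library. Tnfsf10, which encodes the death ligand TRAIL, rose from 8.14, 7.22 and 7.64 FPKM to 36.2, 54.8 and 50.7 (log2 change 2.46, SE 0.15). The macrophage growth factor Csf1 rose by 1.32 (SE 0.13) and Il15 by 0.90 (SE 0.19).

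Molecules by which leukocytes roll on and stick to the vessel wall rose in part. Of 18 tested genes 6 rose, 5 of them at least 2-fold, and Cd99l2 fell by 0.34. Vcam1, the ligand of VLA-4 on lymphocytes and monocytes, went from 2.86, 1.70 and 1.68 FPKM to 23.9, 39.9 and 34.2 (15.7-fold, log2 change 3.44, SE 0.25, adjusted p = 4.24e-08). Icam1, the ligand of LFA-1, went from 21.0, 14.5 and 11.4 FPKM to 45.4, 60.7 and 47.1. P-selectin (Selp) stood at 45.3, 29.6 and 24.3 FPKM under PBS and at 109, 133 and 135 under cGAMP, and E-selectin (Sele) at 38.3, 18.2 and 14.7 and then 60.2, 69.9 and 71.0. In all 4 genes every cGAMP library lay above every PBS library, as for 14.8% of all tested genes. PBS replicate 1 was the highest untreated library in each. The venular chemokine transporter Ackr1 rose by 1.51 (SE 0.24).

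**Figure D4:**
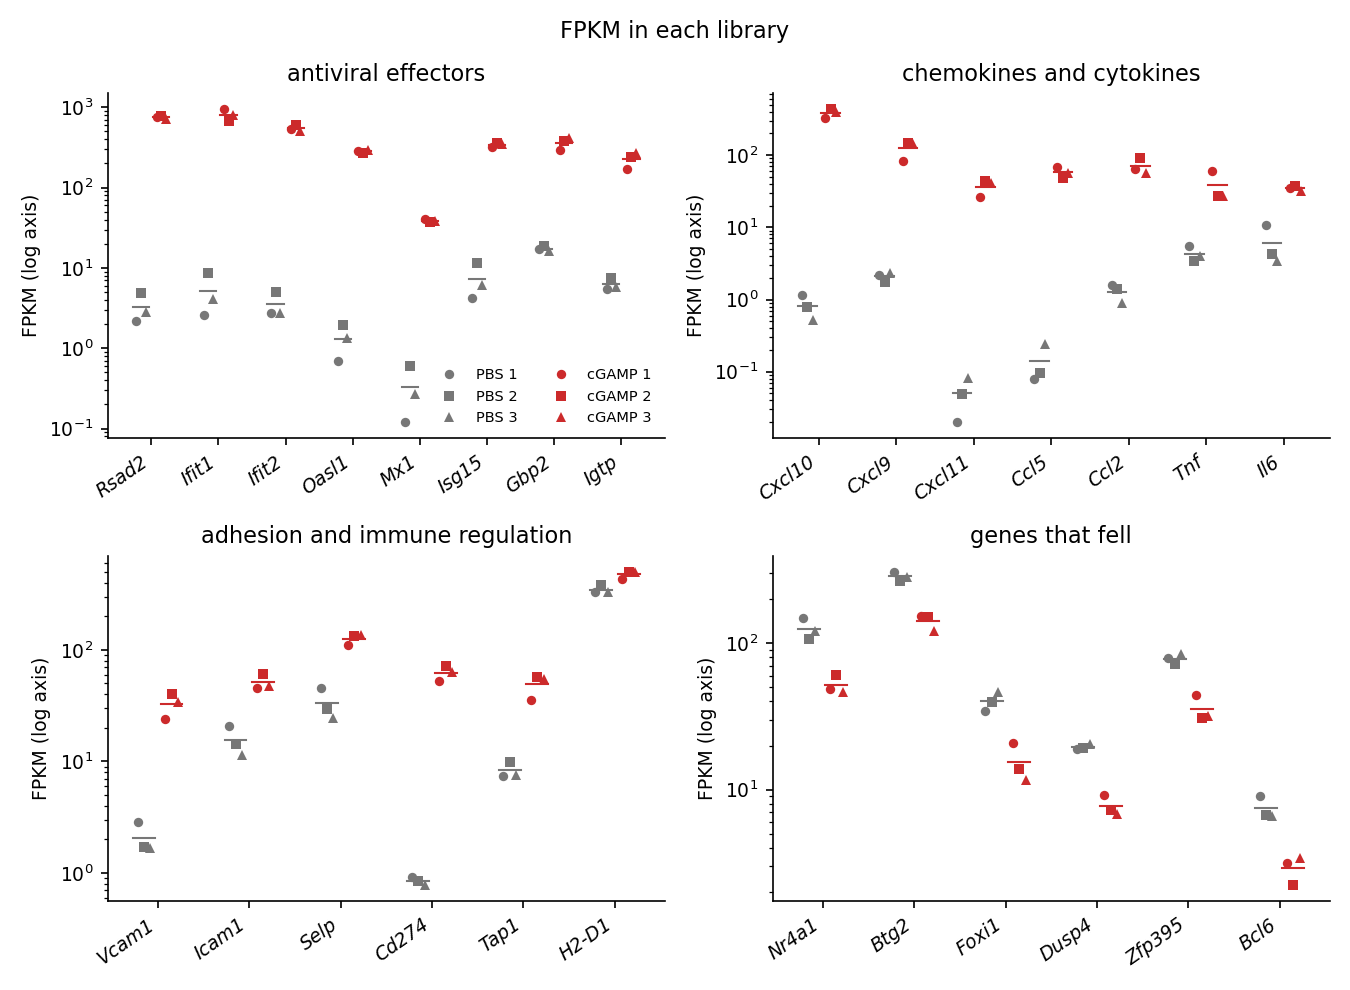
FPKM on a log axis (y axis) of 27 genes (x axis) in 4 groups by role, 1 point for each library, grey for PBS and red for cGAMP, with a bar at each mean and the library number given by the symbol. For the plotted genes that rose, every red point lies above every grey point, from a gap of 436 against 385 FPKM for H2-D1 to 330 against 1.17 FPKM for Cxcl10, and for the 6 genes that fell the order is turned. Of all tested genes 14.8% had the first order and 18.6% the second.

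NF-kB has its own set of targets that limit it, and these rose with its subunits. Of 28 tested genes 16 rose, 8 of them at least 2-fold, and none fell. The deubiquitinase A20 (Tnfaip3) had the largest change, from 14.7, 9.40 and 8.23 FPKM to 59.2, 49.5 and 44.4 (log2 change 2.17, SE 0.20, adjusted p = 1.29e-06). The inhibitor Nfkbia was the most abundant member, at 142, 96.6 and 93.0 FPKM and then 216, 253 and 221, and Nfkbie rose by 1.48 (SE 0.10). All 5 subunit genes rose by less than 2-fold, Nfkb2 by 0.82, Relb by 0.69, Nfkb1 by 0.68, Rel by 0.61 and Rela by 0.58. Scaled by total reads, 15 of the 28 rose and 1 fell.

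Of 28 tested genes of the MHC class I pathway, which shows peptides to CD8+ T cells, 19 rose, 7 of them at least 2-fold, and 9 did not pass. None fell with the deposited scaling, whereas 18 rose and 3 fell when scaled by total reads. Nlrc5, the transactivator of these genes, rose from 0.905, 0.793 and 0.686 FPKM to 6.70, 13.1 and 10.4 (log2 change 2.59, SE 0.17, adjusted p = 1.79e-08). The peptide transporter Tap1 went from 7.40, 9.91 and 7.58 FPKM to 35.3, 57.0 and 55.0, and its partner Tap2 rose by 1.08 (SE 0.12). The immunoproteasome subunits Psmb9, Psmb8 and Psmb10 rose by 1.20, 1.16 and 1.0. The heavy chains themselves were already abundant: H2-D1 read 327, 385 and 328 FPKM and then 436, 499 and 502 (log2 change 0.47, SE 0.12), and H2-K1 rose by 0.49 (SE 0.11), though both missed the threshold without PBS replicate 3 or cGAMP replicate 3, and H2-D1 also without PBS replicate 1 or cGAMP replicate 2 (adjusted p 0.0523 to 0.0763). Of the 10 tested MHC class II genes none passed, and all 10 had log2 changes between -0.61 and 0.04.

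Among 16 tested genes of immune checkpoints and tolerance 7 rose. Cd274, which encodes the T cell inhibitor PD-L1, read 0.915, 0.841 and 0.782 FPKM under PBS and 52.2, 71.7 and 62.7 under cGAMP (73.5-fold, log2 change 5.09, SE 0.24, adjusted p = 3.35e-10). The costimulatory receptor Cd40 rose by 1.81 (SE 0.24) and Lgals9, which encodes galectin-9, from 32.0, 45.4 and 36.0 FPKM to 84.7, 119.9 and 119.8. Vsir, which encodes the checkpoint VISTA, fell by 0.48 (SE 0.13). No gene of the complement list passed among 19 tested.

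Genes of cell death moved on both sides of the pathway. In the list of death receptors and their signalling complex 9 of 18 tested genes rose, the linear ubiquitin ligase subunit Rnf31 by 1.88 (SE 0.09) and the inhibitor of apoptosis Birc3 by 1.28 (SE 0.12) at the top, and the initiator Casp8 and its inhibitor Cflar rose by 0.60 (SE 0.15) and 0.64 (SE 0.15). The necroptosis kinase Ripk3 rose from 6.71, 5.52 and 4.46 FPKM to 15.9, 23 and 17.7, and its target Mlkl from 5.40, 5.89 and 4.92 to 13.6, 19.5 and 15.3. The inflammatory caspase Casp4 rose by 1.82 (SE 0.13), and the pore-forming Gsdmd by 0.63 (SE 0.15). Of 13 tested pro-apoptotic BCL2 relatives 2 rose (15.4%, against 7.42% of all tested genes) and 1 fell (7.69%, against 4.57%). Bcl2l14 rose by 1.17 (SE 0.22) and Bbc3, which encodes PUMA, by 0.78 (SE 0.17), while Bik fell by 0.73 (SE 0.14). Both rises were largest in cGAMP replicate 1, where Bcl2l14 read 16.3 FPKM against 7.94 and 9.23 in the other treated libraries. None of the 4 tested anti-apoptotic members passed. Apaf1, the core of the apoptosome, rose by 0.78 (SE 0.21), while its partner Casp9 fell by 0.53 (SE 0.08). Casp8, Cflar, Gsdmd and Apaf1 did not pass without cGAMP replicate 2, and Casp8, Gsdmd and Apaf1 also without PBS replicate 3 (adjusted p up to 0.115). Casp8 and Apaf1 also did not pass without cGAMP replicate 3, nor did Apaf1 without PBS replicate 2. Without cGAMP replicate 2 the death receptor list had 5 genes that rose.

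Falls of at least 2-fold were few, 10 beside 348 rises of that size, though 639 genes fell with no limit on size. Nr4a1, an orphan nuclear receptor that is induced within minutes by many stimuli, read 149, 107 and 120.4 FPKM under PBS and 48.9, 60.4 and 46.4 under cGAMP, 2.41-fold lower (log2 change -1.25, SE 0.14, adjusted p = 9.44e-06). Btg2 and Tob1 belong to 1 family of antiproliferative proteins that recruit the mRNA deadenylase. Btg2 stood at 308, 265 and 284 FPKM and then at 153, 150.1 and 121, and Tob1 at 66.3, 59.3 and 65.9 and then at 31.6, 37.1 and 25. The MAP kinase phosphatase Dusp4 went from 19.0, 19.2 and 20.6 FPKM to 9.23, 7.30 and 6.78, and the transcriptional repressor Bcl6 from 9.11, 6.75 and 6.65 to 3.14, 2.24 and 3.44. In each of these 5 genes all treated libraries lay below all untreated ones, as for 18.6% of all tested genes.

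The immediate-early factors split. Of 25 tested members 5 fell (20%, against 4.57% of all tested genes). They were Nr4a1 and Btg2 with Fosb (log2 change -0.75, SE 0.19), Klf10 (-0.66, SE 0.11) and Ier2 (-0.60, SE 0.09). The 4 that rose (16%, against 7.42%) had the stress factor Atf3 at their head, from 115, 69.7 and 70.5 FPKM to 164, 159 and 157. Scaled by total reads, 8 members fell and 3 rose. Without PBS replicate 2, PBS replicate 3 or cGAMP replicate 3 only 1 member of the list rose, and without cGAMP replicate 2 there were 2. Ccn1, a matrix-associated signal protein and target of YAP, read 290, 323 and 269 FPKM and then 179, 172 and 207. The Notch targets Hes1 and Hey1 fell by 0.63 (SE 0.16) and 0.76 (SE 0.18), the only members of 22 tested in that pathway to pass (9.09%). Only 1 passed without PBS replicate 2, PBS replicate 3 or cGAMP replicate 3. Of 19 clock genes 5 fell (26.3%) and none rose, with Nr1d1, which encodes REV-ERBa, going from 10.1, 9.81 and 10.2 FPKM to 4.14, 7.37 and 3.86. The clock genes that fell were 3 without PBS replicate 1, and 2 without PBS replicate 3, cGAMP replicate 2 or cGAMP replicate 3.

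A pair of the other called genes are best known from epithelium. Foxi1, a forkhead factor of specialised epithelial cells, read 34.6, 39.6 and 46.1 FPKM under PBS and 20.9, 13.9 and 11.6 under cGAMP (log2 change -1.35, SE 0.28, adjusted p = 0.00494), and the epithelial tight junction protein Cldn2 went from 17.9, 17.5 and 20.9 to 11.2, 7.31 and 7.88. Zfp395, a zinc finger factor, stood at 79.1, 71.5 and 84.8 FPKM and then at 44.6, 30.6 and 31.7, and Klhdc7a at 42.5, 39.98 and 41.2 and then at 23.5, 20.4 and 16.4. In all 4 genes cGAMP replicate 1 was the highest treated library. It was so for the epithelial marker sum too, at 866 FPKM against 616 and 780, but also for 68.4% of the 639 genes that fell, and the part of epithelial RNA in these falls was not tested. The largest fall of all was at the Mir6236 locus, from 42.9, 55.5 and 42.9 FPKM to 14.3, 12.2 and 13.8, with an SE of 0.50 (adjusted p = 0.0339), and it did not pass when any 1 of the 6 libraries was left out (adjusted p 0.0553 to 0.116). The next largest falls had log2 changes of less than 1 in size. Among them the calcium pump Atp2a3 went from 41.2, 22.3 and 31.3 FPKM to 16, 16.5 and 12.9, and the epithelial factor Tfcp2l1 from 24.3, 20.1 and 27.8 to 15.1, 11.7 and 9.69. Tent5b, Gm16136 and Kctd14 fell by 0.99, 0.99 and 0.94. By loss of FPKM the list also holds the linker histone H1f0, from 66.3, 88.0 and 78.2 FPKM to 63.3, 34.97 and 32.5, and the stearoyl-CoA desaturase Scd2, from 136, 149 and 158 to 121, 67.1 and 98.7.

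Zinc finger genes named Zfp, most of which encode DNA-binding repressors, were lower as a group. Of 303 tested 44 fell (14.5%, against 4.57% of all genes) and 5 rose, with a median log2 change of -0.19, and 251 (82.8%) had a change below 0, against 56.4% of all genes. All 3 cGAMP libraries lay below all 3 PBS libraries for 136 of them (44.9%, against 18.6% of all genes). Apart from Zfp395, the falls that passed were small, from -0.65 for Zfp316 to -0.33 for Zfp871, and the genes are weakly expressed, with a median PBS level of 2.67 FPKM. The count of falls depended on single libraries, at 24 without PBS replicate 2, 22 without PBS replicate 3, 18 without cGAMP replicate 2 and 23 without cGAMP replicate 3, whereas the median stayed between -0.22 and -0.18 with any of the 6 left out. Scaled by total reads 39.6% fell, against 16.9% of all genes. A small shift below 0 was not particular to the Zfp genes. A still smaller share lay above 0 among cytosolic ribosomal protein genes (2 of 83, median -0.13) and nuclear oxidative phosphorylation genes (5 of 76, median -0.15).

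Few vascular genes other than adhesion molecules passed, though some lists lay a little higher. In shear stress and vascular tone 17 of 21 genes had log2 changes above 0 (median 0.29), and in VEGF and angiopoietin signalling 23 of 29 (median 0.34). Of all 13983 tested genes 6093 lay above 0 (median -0.04). Against the PBS mean, the list medians in cGAMP replicates 1, 2 and 3 were 0.02, 0.52 and 0.33, and 0.03, 0.50 and 0.36. The cause of this shift was not tested. The shares that rose in shear stress and vascular tone (2 of 21, 9.52%) and in VEGF and angiopoietin signalling (2 of 29, 6.90%) lay near the 7.42% of all tested genes. In the first list these were the flow-induced factor Klf2 from 39.9, 21.7 and 21.4 FPKM to 37.3, 58.6 and 64.1 and the endothelial nitric oxide synthase Nos3 by 0.75 (SE 0.23). In both genes the groups overlapped, since PBS replicate 1 lay above cGAMP replicate 1 (15.4 against 14.1 FPKM for Nos3). In the second they were the receptors Flt1, which rose by 0.63 (SE 0.18), and Flt4, by 0.54 (SE 0.17), and the ligand Angpt1 fell by 0.54 (SE 0.13). Klf2, Nos3, Flt1 and Flt4 did not pass without PBS replicate 2, PBS replicate 3, cGAMP replicate 2 or cGAMP replicate 3 (adjusted p 0.0817 to 0.204). Bmp2, a ligand of the BMP receptors, rose from 1.84, 1.32 and 1.02 FPKM to 7.97, 11.9 and 12.3 (log2 change 2.28, SE 0.29, adjusted p = 3.42e-05). Id2, an inhibitor of helix-loop-helix factors and a known BMP target, fell from 61.0, 70.9 and 86.1 to 50.7, 38.3 and 33.9. Among clotting and fibrinolysis genes the plasminogen activator Plat and the urokinase receptor Plaur rose by 1.19 (SE 0.18) and 1.53 (SE 0.21). The aggrecanase Adamts4 went from 49.4, 29.2 and 22.8 FPKM to 119, 141 and 157, and its relatives Adamts9 and Adamts1 rose by 1.36 (SE 0.22) and 0.98 (SE 0.22).

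Among metabolic genes a few single rises were large. Of 32 tested genes of glycolysis and the hypoxia response 4 rose (12.5%, against 7.42% of all tested genes) and 1 fell (3.13%, against 4.57%). Pfkfb3, whose product drives glycolysis in ECs, was the only one called. It went from 10.6, 8.10 and 9.69 FPKM to 43.3, 59.7 and 48.5 (log2 change 2.29, SE 0.17, adjusted p = 7.63e-08). Upp1, a uridine phosphorylase, rose by 2.20 (SE 0.21), Gch1, which begins the synthesis of the nitric oxide synthase cofactor, by 1.70 (SE 0.14) and Nampt, which begins the salvage of NAD, by 1.16 (SE 0.12). Cdkn1a, the cell cycle inhibitor p21, rose from 18.2, 12.9 and 12.4 FPKM to 33.2, 44.3 and 40.3, and 40 of the 45 tested cell cycle genes did not pass. Of the 26 genes of the unfolded protein response 3 rose (11.5%). Of these Ppp1r15a, the stress-induced phosphatase subunit GADD34, was called, from 20.8, 15.7 and 13.2 FPKM to 64.5, 44.3 and 38.2. In the housekeeping lists none of 83 cytosolic ribosomal protein genes and 1 of 76 nuclear genes of oxidative phosphorylation passed. Their medians were -0.13 and -0.15 against -0.04 for all genes. Only 2 of the 83 and 5 of the 76 had log2 changes above 0, against 6093 of all 13983 tested genes. Scaled by total reads, 30 genes of each of these lists fell. The noncoding Gm42418, which overlaps ribosomal RNA sequence, had the largest gain in FPKM after Ifit1 and Rsad2, from 2118, 1912 and 2219 to 2710.2, 3031 and 2692 (log2 change 0.43, SE 0.13, adjusted p = 0.0466), and its adjusted p was 0.12 when scaled by total reads.

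Of 23 matrix proteases and inhibitors 6 rose (26.1%, against 7.42% of all tested genes), and beside the ADAMTS genes these were the protease inhibitors Timp3 from 63.2, 46.4 and 40.1 FPKM to 84.7, 122 and 103 and Timp1 by 0.80 (SE 0.16), and the lysosomal protease Ctsb by 0.47 (SE 0.08). Tm4sf1, a membrane protein of endothelial protrusions, went from 91.2, 77.2 and 77.3 FPKM to 185, 185 and 202. Among 23 junction genes 2 rose (8.70%), the connexin Gja1 by 0.59 (SE 0.14) and the adhesion protein Nectin2 by 0.50 (SE 0.10). In fatty acid handling the lipid droplet protein Plin2 rose from 60.0, 74.9 and 63.6 FPKM to 125, 118 and 110.0. Of the 25 genes 4 fell (16%, against 4.57% of all tested genes), Scd2 and the acyl-CoA synthetase Acsl3 (log2 change -0.61, SE 0.11) among them. No gene passed among 18 heat shock proteins, 29 autophagy genes, 30 collagens or 10 genes of the mitochondrial genome. Several of these counts rest on single libraries or on the scaling. Without cGAMP replicate 3, 4 of the mitochondrial genes rose, and without PBS replicate 2, 2 heat shock genes and 1 complement gene. Without cGAMP replicate 1, 2 collagens rose, and 1 heat shock gene, 1 MHC class II gene and 3 ribosomal protein genes fell. Scaled by total reads, 5 autophagy genes, 3 heat shock genes and 1 MHC class II gene fell. The 4 rises among cell cycle genes were 1 without PBS replicate 2 or cGAMP replicate 3 and 2 without cGAMP replicate 2, those in glycolysis 1 without PBS replicate 3 and 2 without cGAMP replicate 2 or 3, and the 4 falls in fatty acid handling 1 without PBS replicate 2 or 3 and 2 without cGAMP replicate 2 or 3. Without cGAMP replicate 1 the rises in VEGF and angiopoietin signalling were 6 and the falls in oxidative phosphorylation 7, and the latter were 6 without PBS replicate 1.

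Many genes called higher lie outside the lists, 193 of the 348, and several belong to the same response. Ifi202b, of the interferon-induced p200 family, rose from 1.55, 1.63 and 1.53 FPKM to 27.8, 56.3 and 51.2, and the RNA helicases Znfx1 and Helz2 rose by 3.01 (SE 0.11) and 2.92 (SE 0.18). The giant ubiquitin ligase Rnf213 went from 17.5, 20.8 and 18.6 FPKM to 93.9, 170.5 and 134, and the chromatin factor Daxx from 7.94, 6.94 and 7.97 to 53.9, 71.2 and 68.3. The proteinase inhibitors Serpina3f and Serpina3g rose by 3.91 (SE 0.29) and 3.40 (SE 0.27). The bacterial lipoprotein receptor Tlr2 rose by 2.52 (SE 0.15), and the endothelial lipase Lipg by 2.95 (SE 0.18). These genes were chosen after their values were seen.

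Some genes called higher lay close together. There were 11 runs of at least 4 of them with gaps of no more than 100 kb, holding 55 of the 348. In 8 of the 11 every tested gene of the interval was called. The runs were built from called genes and begin and end on them, which favours such a share. Runs were not counted for other genes, so no conclusion is drawn from these numbers. The run on chromosome 8 is Irf2 with its neighbours Gm45479, Gm31172 and Gm45481. The run with the most genes covers 176 kb on chromosome 19 (34473778 to 34650009), where all 8 tested genes were called, the 6 IFIT genes with Ch25h, a cholesterol hydroxylase with antiviral action, and Lipa, the lysosomal acid lipase, at changes from 1.13 to 7.16. On chromosome 1 (173723427 to 173982744) 7 genes around Ifi203 and Ifi204 were called, and on chromosome 11 (48861968 to 49135387) 7 around Irgm1 and Tgtp1. The run on chromosome 3 (142493978 to 142638008) holds 5 guanylate-binding proteins, and the one on chromosome 17 (34181987 to 34216321) the interleaved genes Psmb9, Tap1, Psmb8 and Tap2 of the MHC. The positions are those of GRCm38, and members of such families are close copies of each other whose reads counting may have split.

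The 6 libraries differed among themselves in a patterned way. PBS replicate 2 was the highest of the 3 PBS libraries for 70 of the 89 antiviral effectors (78.7%, against 33.6% of all tested genes), as with Isg15 at 11.6 FPKM against 4.18 and 6.16. Replicate 1 of the cGAMP group was the lowest treated library for 73 of the 89 (82%, against 34.2% of all), and for 239 of the 348 genes called higher (68.7%). Among the 639 genes that fell, the same library was the highest of the 3 treated ones for 437 (68.4%, against 36.7% of all). Without cGAMP replicate 1, 395 genes were called higher and 26 lower, and without PBS replicate 2, 350 and 17. The IFIT genes did not share this pattern, since their median change against the PBS mean was 6.51, 6.34 and 6.39 in cGAMP replicates 1, 2 and 3, and Tnf, Bcl2l14, Bbc3 and Ppp1r15a were highest in cGAMP replicate 1. Of the 170 genes named here that passed, 137 kept an adjusted p under 0.05 with each library left out in turn. The other 33 lost it without at least 1 library, at adjusted p 0.0507 to 0.208, and beside those already given they are Irf5 and Gm42418 (whichever library was left out), Jak3, Cish, Rel, Oas3, Vsir, Lrrc8e, Cd99l2, Cd14, Fosb, Hes1, Hey1, Klhdc7a, Angpt1, Adamts1, Atp2a3, Gja1, Gm16136, H1f0, Scd2 and Zfp871.

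Compared with normal fat pad ECs, the response of MMTV-PyMT ECs was larger for more genes than it was smaller. The difference between the effects passed the 2-fold rule for 179 genes (1.28%) that responded more in MMTV-PyMT ECs and 66 (0.472%) that responded less, and with no limit on size for 766 (5.48%) and 405 (2.9%). Against implanted tumour ECs the balance was the other way, with 88 genes (0.629%) larger and 258 (1.85%) smaller, or 520 (3.72%) and 1026 (7.34%) with no limit on size. Of the 348 genes called higher in MMTV-PyMT ECs, the effect was larger than in normal ECs for 86 and smaller for 4 with adjusted p under 0.05, and larger than in implanted tumour ECs for 28 and smaller for 78, and for 258 and 242 of them the difference did not pass. Only Lrrc4, of the 24 genes called in MMTV-PyMT ECs and in neither other tissue, had an effect that differed from both.

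Of the 348 genes called higher, 14 had a larger effect than in both other tissues, and 10 of these are guanylate-binding proteins, immunity-related GTPases or Cxcl9. Mean levels are given for some of them, but the PBS level is part of the effect by which the 14 were picked. Gbp2 averaged 17.4 ± 1.4 FPKM under PBS in MMTV-PyMT ECs (SD, n = 3), 48.7 in normal and 263 in implanted tumour ECs, and 363 ± 59.1, 336 and 1663 FPKM under cGAMP. Igtp averaged 6.28, 13.2 and 107 FPKM under PBS and 225, 162 and 613 under cGAMP, in the same order of tissues. Cxcl9 averaged 2.09, 5.07 and 235 FPKM and then 124, 73.1 and 1539. In each of the 14 genes the PBS mean was lowest in MMTV-PyMT ECs, a placing that the choice of these genes favours. The cGAMP mean was above that of implanted tumour ECs for Lrrc4 and Ncoa7 alone. Over all 348 genes called higher the median PBS level was 3.33 FPKM in MMTV-PyMT, 5.04 in normal and 8.51 in implanted tumour ECs. These genes were chosen for a rise from PBS in MMTV-PyMT ECs, which favours a low PBS level there, so no conclusion is drawn from the medians.

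**Figure D5:**
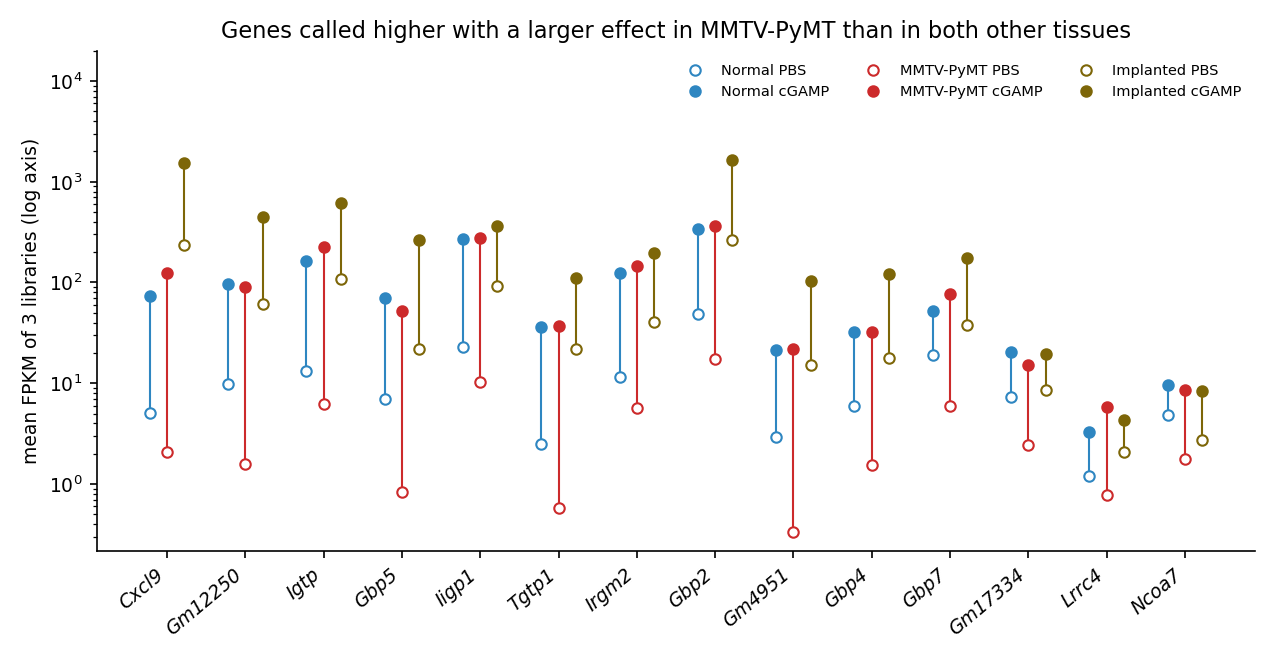
Mean FPKM of 3 libraries on a log axis (y axis) for the 14 genes called higher (x axis) whose cGAMP effect was larger in MMTV-PyMT ECs than in both other tissues, with open circles for PBS, filled circles for cGAMP and 1 colour for each tissue. The open red circles are the lowest of each gene, for example 17.4 FPKM for Gbp2, where the filled red and blue circles lie at 363 and 336 FPKM. The choice of genes favours this placing.

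Adhesion and vascular genes gave some of the widest differences from normal ECs. Vcam1 rose by 3.44 in MMTV-PyMT ECs, 1.0 in normal and 3.42 in implanted tumour ECs, and the difference from normal passed (2.45, SE 0.35, adjusted p = 0.00108). Bmp2 rose by 2.28, against 0.07 in normal ECs (difference 2.22, SE 0.40, adjusted p = 0.00499) and 4.07 in implanted tumour ECs. Klf2 differed from normal ECs by direction, with 0.94 against -0.71 (adjusted p of the difference 0.0085). Tnfsf10 rose by 2.46 against 0.73 in normal ECs (adjusted p of the difference 0.000439). The caspase list was weaker than in implanted tumour ECs for 7 of its 19 tested genes and larger for none, and the MHC class I list for 12 of 28 and larger for none, where 7.34% of all genes had a smaller and 3.72% a larger effect.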

How the data were processed

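RNA from sorted ECs was sequenced as 75-base paired reads from a directional library. Per the labels and methods, the submitters' processing notes name FastQC, STAR 2.7 with mm10, and HTSeq, and the authors deposited 1 table of FPKM for 16248 genes in 18 libraries, with no value at 0; how FPKM were computed, the annotation and the strand setting are not given in the sources used here. The deposited FPKM were found to be whole reads over a fixed length per gene and a scale per library. This scale was not in proportion to the counted reads, and how it was set was not checked. Lengths came from GENCODE M21 (15793 genes) or from the step between values (455 genes). With them 100% of genes gave whole reads within 0.02 reads, or within a wider limit in proportion to the count for genes with many reads. For the 455 genes the length was searched until the values came out whole, so this is no check of them. The recovered reads served for read counts and for the alternatives that need them. Columns named C were taken as PBS and S as cGAMP, the columns without a tumour name as normal fat pad because the other 2 tissues are named; 0 columns had no sample.

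Genes reaching 1 FPKM in 3 or more of the 18 libraries were tested (13983), and 2265 did not reach it. log2(FPKM + 1) was fitted in limma 3.58.1 (R 4.3.3) with 1 mean for each of 6 groups over all 18 libraries and a shared, trended spread, 2-sided, with Benjamini-Hochberg adjustment over all tested genes. The fit was tested on simulated data. Differences of effects between tissues were contrasts of the same fit. The 60 gene lists and the members described were chosen with earlier results of these data known, and list counts carry no test. Genes named are the 20 largest rises, 15 largest falls, the largest gains and losses of FPKM, and leading members of each list; further genes were named after their values were seen. Replicates of the MMTV-PyMT groups differed by more than counting noise (chi-square per gene 4.78 to 15.5). Over all 6 groups the values ran from 4.095 (normal PBS) to 31.56 (implanted cGAMP), and all 18 libraries enter the shared spread. As nothing but the methods' count of mice says what separates replicates, p-values measure the spread between these libraries. Promoters came from RefSeq windows matched by symbol. Alternatives were another pseudocount, other filters, quantile and total-read scaling, voom on recovered reads, a replicate block, a fit of 6 libraries, and leaving out each library. A few genes are not reported here.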

Additional observations from a re-analysis of the deposited data

Results flagged for a closer look

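The effect of cGAMP on single genes differed between MMTV-PyMT ECs and the other tissues, by a test of the difference of effects in limma over all tested genes, and the 6 widest such differences in each direction are given as values, in log2 units of the effect in MMTV-PyMT ECs minus that in the other tissue.

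Against normal fat pad ECs the widest were for Csn1s2a, a milk casein gene, at 5.48 (SE 1.24, adjusted p = 0.0136), where MMTV-PyMT ECs averaged 5.99 ± 4.56 FPKM under PBS and 18.6 ± 15.2 under cGAMP (SD of 3 libraries). Normal ECs averaged 42.6 ± 22.05 and 1.20 ± 1.56. For Gja5, a connexin of arterial endothelium, the difference was 2.62, with mean levels of 1.17 and 1.84 FPKM in MMTV-PyMT ECs under PBS and cGAMP against 32.8 and 6.22 in normal ECs. It was 2.29 for Edn1, the vasoconstrictor endothelin, with 3.42 and 4.97 FPKM against 46.7 and 12.3, and 2.33 for Hsph1, a heat shock protein, with 9.11 and 14.9 against 17.4 and 4.77. Vcam1 and Bmp2 differed by 2.45 and 2.22.

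The negative differences against normal ECs were -2.35 for Cirbp, the cold-induced RNA-binding protein, which averaged 19.6 and 12.5 FPKM in MMTV-PyMT ECs and 4.61 and 17.6 FPKM in normal ECs, and -1.73 for the metallothionein Mt2. They were -1.50 for 2410002F23Rik, -1.50 for Gm20416, -1.46 for Gm36816 and -1.42 for Prom2, a membrane glycoprotein of epithelia.

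Against implanted tumour ECs the effect was larger in MMTV-PyMT ECs by 2.64 for Cxcl9, 2.64 for Iigp1, 2.43 for Igtp, 2.28 for Tgtp1, 2.23 for Gm12250 and 2.23 for Gm49958. It was smaller by a difference of -2.77 for Ifit1bl1, -2.70 for Ido1, which degrades tryptophan, -2.63 for the lymphocyte growth factor Il15, -2.61 for the MYC antagonist Mxd1, -2.59 for Ms4a6b and -2.53 for Gzmb, the cytotoxic granule protease, whose mean of 13.1 ± 13.1 FPKM in cGAMP-treated implanted tumour ECs came with an equal SD (n = 3).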

How the results depend on the processing

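The count of 358 called genes became 600 with a pseudocount of 0.1, 592 with voom on recovered reads and 1676 without the fold limit. The 348 higher became 563 and 536 with the first and second of these, and the 10 lower became 37 and 56, and 27 with total-read scaling. Leaving out 1 library at a time gave 7 to 26 called lower, 645 to 1129 that rose and 221 to 830 that fell. The 639 falls became 1018 with quantile normalization and 2367 with total-read scaling, and the 371 list genes that passed became 599 with the latter, since that scaling lowers the median of all genes. Genes with a different effect from normal ECs went from 245 to 378 with a pseudocount of 0.1 and 402 with voom, and from implanted tumour ECs from 346 to 540 with that pseudocount and 222 with only genes of mean FPKM of at least 5. Apart from that filter, which leaves fewer genes, and the scaling, the cause of these changes was not tested.

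Equal replicate numbers did not pair the MMTV-PyMT libraries: deviations of same-numbered libraries correlated at -0.195, -0.027 and 0.043. With a replicate block 341 genes were called higher and 10 lower, and 754 rose and 310 fell. No sign of a named gene turned under any alternative. Of 24 differences between tissues, 4 lost their call under 1 or more alternatives other than leaving out a library (Gm20416 with the block, Ifit1bl1, Ms4a6b and Gzmb with voom, Ms4a6b also with the pseudocount of 0.1). With 3 libraries a group, small changes could not be told from the spread, and genes near 1 read a library have folds set by the pseudocount.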
